A study of Rattus norvegicus with 30 samples.

Results

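Glutamate receptors and the proteins that anchor them at the synapse were followed as a group of 35 genes, chosen by name, in the dorsal hippocampus of TgF344-AD and wildtype rats. All 35 had a row among the 17455 genes of the count table, and all 35 passed the filter on low counts, with 12547 genes tested in all. The group holds 4 AMPA receptor genes, 6 NMDA, 5 kainate and 6 metabotropic receptor genes, 12 scaffold and adhesion genes and 2 genes of the kinase CaMKII. The 30 libraries form 8 groups by sex, genotype and diet. The TgF344-AD groups, labelled alzheimer, were female on western diet (n = 3), female on chow (n = 4), male on western diet (n = 4) and male on chow (n = 4). The wildtype groups had the same 4 combinations with the same numbers. The TgF344-AD genotype includes a mutated form of human APP under the prion promoter of the mouse, which is active in many cells and not in neurons alone. The labels used here state neither the age of the rats nor how long they ate the diet or what it held.

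Most fast excitatory signals of the hippocampus pass through AMPA receptors, ion channels built from 4 kinds of subunit. NMDA receptors open only when glutamate binds while the membrane is depolarised, and their calcium entry activates CaMKII, a starting step of long-term potentiation. Kainate receptors act on both sides of the synapse, and metabotropic receptors signal through G proteins. Beneath the membrane, PSD-95 proteins (the Dlg genes), their partners of the Dlgap family, Shank proteins and Homer proteins form a layered scaffold that links these receptors to each other and to the cytoskeleton.

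Of the 35 genes, 8 differed by genotype (22.9%, against 8.03% of all genes tested), all by small amounts, 4 upward and 4 downward. Among abundant genes, defined below, 6 of 26 members and 15.3% of all genes differed. The AMPA subunit gene Gria1, the kainate subunit gene Grik1 and the metabotropic receptor genes Grm5 and Grm7 were higher in alzheimer than in wildtype libraries. The AMPA subunit gene Gria3, the metabotropic receptor gene Grm4 and the scaffold genes Dlgap3 and Shank3 were lower. These changes ran from 5.28% lower for Gria3 and 6.09% higher for Gria1 to 14.4% higher for Grik1, with 15 libraries per genotype. No gene of the NMDA or CaMKII class passed the test. Diet averaged over both sexes changed no member, and the effect of diet differed between females and males for Grm5, a call that ended when any 1 of 20 of the 30 libraries was left out. Of all genes tested 0.00797% were called for diet and 1.23% for the difference of its effect between the sexes.

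Library totals spanned 13.9 M to 31.4 M counts, with a median of 17.8 M (M, mega). Levels are given as CPM, counts per M of the library total, with libraries scaled by the trimmed mean of M values (TMM). They are not per gene length, so they compare genes only roughly, as where genes are called abundant or low. App, the amyloid precursor gene, whose row can also collect reads of the human transgene, had its lowest, median and highest values at 3137, 3297 and 3398 CPM in alzheimer libraries and at 1548, 1667 and 1782 CPM in wildtype libraries. The groups did not overlap, as the labels require. General neuron markers and the CA1, CA3 and dentate markers Wfs1, Cpne4 and Prox1 were detected in every library, while Iyd and Lhfpl1 of the CA3 list and Lct and Tdo2 of the dentate list were at 0 in 3 to 18 libraries. The row of Npy, a marker of an interneuron class, held almost no counts, at 0.306 CPM on average, while Gad1, Gad2, Sst and Pvalb were present. The reason was not tested, and the low value was not read as absence of Npy from the tissue.

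Sequence upstream of the start was matched for 23 of the 35 genes in the RefSeq table for the rat build GRCr8. The 250 bases before the start are shown for 2 members that were higher in alzheimer libraries, Grm5 and Grm7, and for 2 that were lower, Dlgap3 and Shank3, so that their upstream sequence can be compared. Capitals mark the GC box, GGGCGG, and the E-box, CANNTG, each searched on both strands. No 2 matches overlap in these windows, and 2 E-boxes adjoin in Dlgap3.
Grm5, chr1:150733503-150733752, plus strand: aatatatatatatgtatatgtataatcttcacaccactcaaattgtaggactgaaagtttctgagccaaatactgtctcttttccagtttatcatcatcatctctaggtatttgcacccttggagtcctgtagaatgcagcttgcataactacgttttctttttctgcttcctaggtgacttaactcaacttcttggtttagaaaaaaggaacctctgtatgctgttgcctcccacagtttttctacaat
Grm7, chr4:145286476-145286725, plus strand: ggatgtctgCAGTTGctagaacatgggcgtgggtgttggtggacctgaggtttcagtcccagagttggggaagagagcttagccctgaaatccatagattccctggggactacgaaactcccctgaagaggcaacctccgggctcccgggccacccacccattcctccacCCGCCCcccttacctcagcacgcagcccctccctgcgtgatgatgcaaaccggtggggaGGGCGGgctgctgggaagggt
Dlgap3, chr5:144800015-144800264, plus strand: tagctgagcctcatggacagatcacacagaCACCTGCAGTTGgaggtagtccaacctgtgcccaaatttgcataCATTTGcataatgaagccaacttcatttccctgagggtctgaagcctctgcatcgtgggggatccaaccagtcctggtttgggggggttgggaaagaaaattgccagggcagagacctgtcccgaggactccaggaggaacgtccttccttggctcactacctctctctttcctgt
Shank3, chr7:122448073-122448322, plus strand: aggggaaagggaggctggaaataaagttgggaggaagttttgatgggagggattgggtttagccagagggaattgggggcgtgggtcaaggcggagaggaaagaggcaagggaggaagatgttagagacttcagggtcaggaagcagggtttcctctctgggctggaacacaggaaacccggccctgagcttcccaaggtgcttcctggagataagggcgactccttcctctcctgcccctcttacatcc
Grm7 held 2 GC boxes and 1 E-box, Dlgap3 held 3 E-boxes, and neither motif was found in the windows of Grm5 and Shank3. Of 27457 upstream windows of this length, 32.4% held a GC box and 65.2% an E-box, against 5 and 16 of the 23 members. GC content was 36.4% for Grm5, 62.0% for Grm7, 52.8% for Dlgap3 and 56.0% for Shank3. A motif match is a description of letters, not a site.

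The question of the genotype comparison was whether the transgenic line differs from wildtype when sex, diet and cohort are balanced. Across all genes tested, 8.03% were called for genotype, 4.14% as higher and 3.89% as lower, where a call is an adjusted p below 0.05 in edgeR's quasi-likelihood test with Benjamini-Hochberg adjustment. The members were called in 22.9% of cases. Their median level of 118 CPM was above the 26.8 CPM of all genes, and among the 4265 genes with a mean of at least 50 CPM, 15.3% were called, against 6 of 26 such members. The median log2 fold change of the 35 genes was −0.0079, against 0.0020 for all genes, with 17 members above 0 and 18 below. The plot of all members by class shows these values with their errors.

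**Figure D1:**
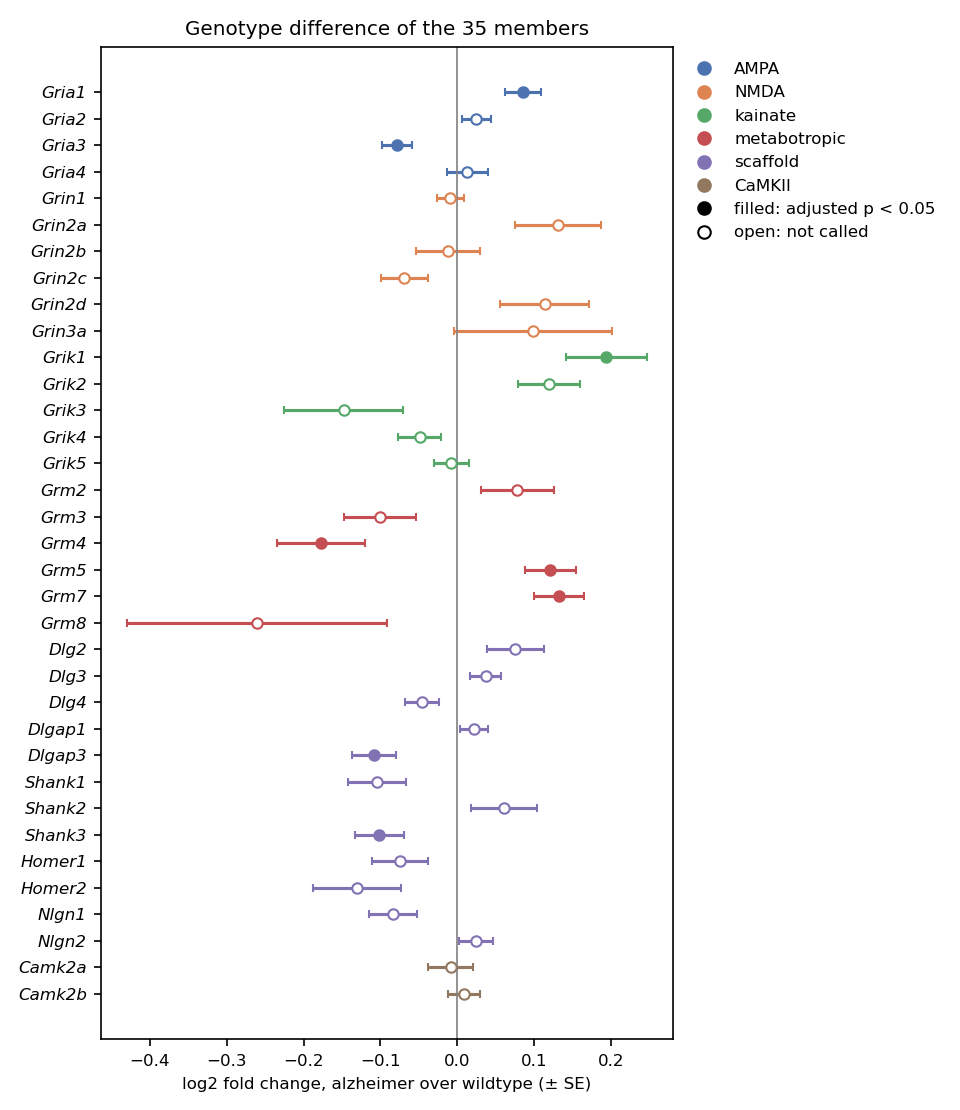
Log2 fold change of alzheimer over wildtype (x axis) with its standard error for each of the 35 genes, coloured by class. Filled points passed an adjusted p of 0.05. Called members lie on both sides of 0, from −0.18 for Grm4 to 0.19 for Grik1, and the open point farthest from 0 is Grm8 at −0.26 with the widest error.

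AMPA receptor genes moved in opposite directions. Gria1 encodes GluA1, the subunit whose insertion into synapses accompanies long-term potentiation. It had a lowest, median and highest value of 619, 665 and 698 CPM in alzheimer libraries and of 576, 627 and 683 CPM in wildtype libraries. The ranges overlap, and 13 of 15 alzheimer libraries lay above the wildtype mean of their own sex and diet. On the log2 scale it was higher by 0.09 ± 0.023 (SE, edgeR adjusted p = 0.0166). Gria3, which encodes GluA3, stood at 280.4, 311 and 328 CPM in alzheimer libraries, against 301, 325 and 351 CPM in wildtype libraries. It lay below that wildtype mean in 12 of 15 alzheimer libraries, with overlapping ranges and a log2 fold change of −0.08 ± 0.020 (edgeR adjusted p = 0.0107).

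Gria2, whose edited subunit blocks calcium entry through AMPA receptors, averaged 1169 ± 55.4 CPM in alzheimer libraries, against 1149 ± 53.0 CPM in wildtype libraries (SD, n = 15 each). Its log2 fold change of 0.02 ± 0.019 did not pass (edgeR adjusted p = 0.484). Gria4 averaged 95.5 ± 6.10 CPM in alzheimer libraries, against 95.0 ± 5.48 CPM in wildtype libraries (adjusted p = 0.84). AMPA receptors also carry auxiliary proteins, and of 22 tested genes for these and for AMPA receptor handling, 3 were higher and 0 lower. They were Nptx1 (log2 fold change 0.14 ± 0.027, adjusted p = 0.00103) and Nptxr (0.12 ± 0.028, adjusted p = 0.00446), pentraxins that cluster AMPA receptors from outside the cell, and Grip1 (0.14 ± 0.035, adjusted p = 0.0118), a PDZ protein that binds GluA2 and GluA3. The median of these 22 genes was 0.0040, and 13.6% of them were called, against 8.03% of all genes.

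**Figure D2:**
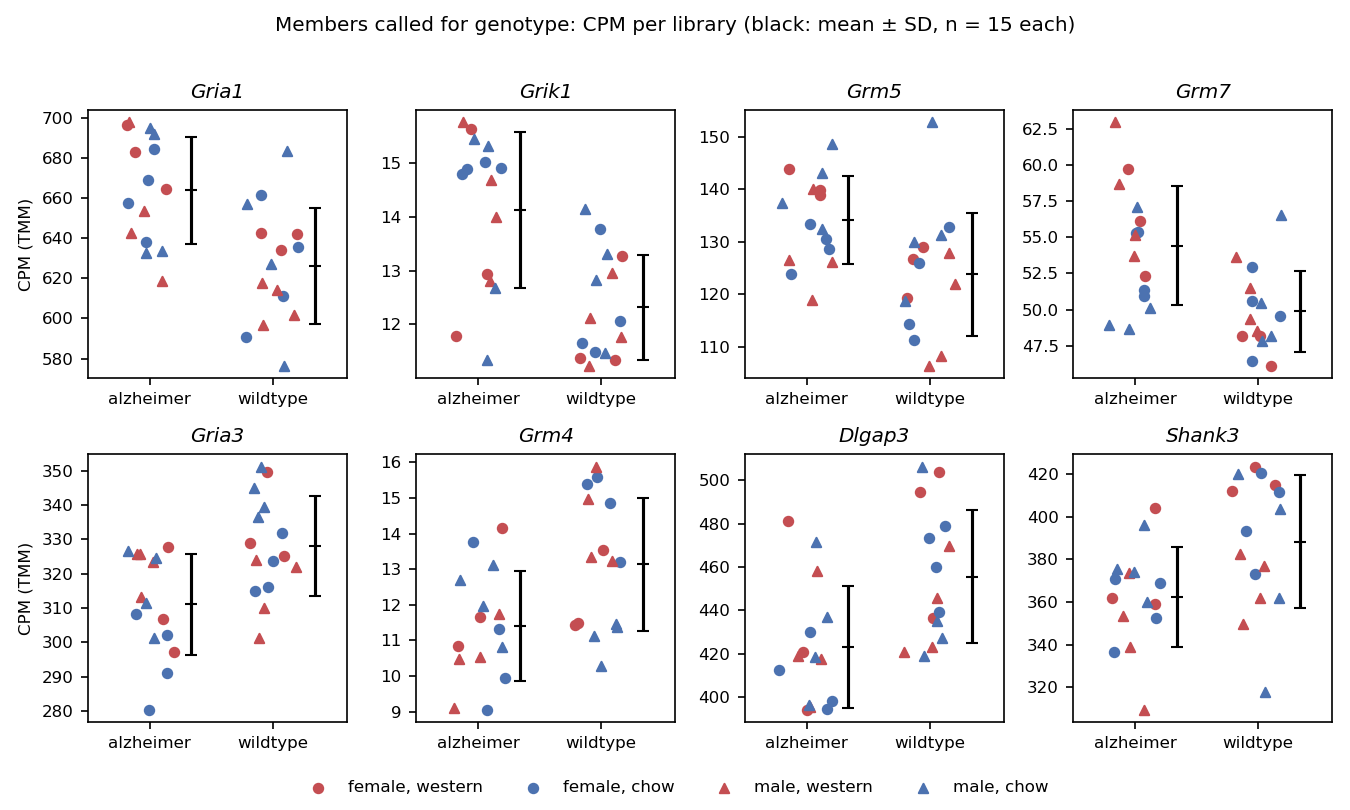
CPM (y axis) of the 8 members called for genotype, 1 point per library, alzheimer left and wildtype right in each panel. Circles are females, triangles males, red western diet and blue chow, and the black bar is the mean ± SD. The groups overlap in every panel, from Grik1 (11.3 to 15.8 CPM in alzheimer, 11.2 to 14.1 CPM in wildtype) to Gria1.

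NMDA receptor genes did not pass the genotype test in any of 6 cases. Grin1, the subunit that every NMDA receptor needs, was among the steadiest members, at 888 ± 24.4 CPM in alzheimer libraries, against 894 ± 23.4 CPM in wildtype libraries (log2 fold change −0.01 ± 0.017, edgeR adjusted p = 0.819). Grin2a, the subunit that gains ground over Grin2b as the hippocampus matures, stood at a lowest, median and highest value of 121, 149 and 178 CPM in alzheimer libraries, against 111, 136 and 181 CPM in wildtype libraries. Its log2 fold change of 0.13 ± 0.056 did not pass (edgeR adjusted p = 0.148), while it was 0.04 in cohort 1 alone (adjusted p = 0.914) and 0.22 in cohort 2 alone (adjusted p = 0.0181). Grin2b averaged 114 ± 12.6 CPM in alzheimer libraries, against 115 ± 10.6 CPM in wildtype libraries. Grin2c, Grin2d and Grin3a had log2 fold changes of −0.07, 0.11 and 0.10, with adjusted p values from 0.17 to 0.639.

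Among kainate receptor genes, Grik1 had the largest change of all called members. It encodes GluK1, a subunit found mainly in interneurons in the hippocampus of rodents. Its lowest, median and highest values were 11.3, 14.8 and 15.8 CPM in alzheimer libraries, against 11.2, 12.1 and 14.1 CPM in wildtype libraries. In 12 of 15 alzheimer libraries it lay above the wildtype mean of the same sex and diet, with a log2 fold change of 0.19 ± 0.052 (edgeR adjusted p = 0.0172). Without female_alzheimer_western replicate 11 the call ended (0.16, adjusted p = 0.0537). Interneuron markers summed to 845 to 957 CPM in alzheimer libraries, against 809.6 to 984 CPM in wildtype libraries, with 1 of 9 tested markers called, Pvalb, as lower. The part of cell makeup in the change of Grik1 was not tested. In these bulk libraries a change in the number of cells of a type and a change in RNA per cell cannot be told apart. CPM are relative to the library total, so a change in the RNA of other cells cannot be told apart from these either.

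Grik2, the kainate subunit of mossy fibre synapses, just missed the threshold (log2 fold change 0.12 ± 0.040, edgeR adjusted p = 0.064). It passed in limma-voom (adjusted p = 0.0461) and without a filter on low counts (0.0423). Grik3, Grik4 and Grik5 had log2 fold changes of −0.15, −0.05 and −0.01, none called.

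Metabotropic receptor genes changed in both directions. Grm7, a presynaptic receptor that restrains release, had the smallest p of all members. It stood at a lowest, median and highest value of 48.7, 55.2 and 62.9 CPM in alzheimer libraries, against 46.1, 49.4 and 56.5 CPM in wildtype libraries. It was higher in 12 of 15 libraries, with a log2 fold change of 0.13 ± 0.032 (edgeR adjusted p = 0.0081). Grm5, a postsynaptic receptor coupled to phospholipase C that Homer proteins tie to the scaffold, stood at 119, 133 and 149 CPM in alzheimer libraries, against 106, 126 and 153 CPM in wildtype libraries. It was higher in 14 of 15 libraries, by 0.12 ± 0.033 (edgeR adjusted p = 0.0183).

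Grm4, another presynaptic receptor, stood at 9.05, 11.3 and 14.2 CPM in alzheimer libraries, against 10.3, 13.2 and 15.9 CPM in wildtype libraries, lower in 11 of 15. Its log2 fold change of −0.18 ± 0.057 lay at the threshold (edgeR adjusted p = 0.0494). The call ended in limma-voom (−0.17, adjusted p = 0.0609), without the cohort term (−0.18, adjusted p = 0.0523), when 2 surrogate variables were added (−0.14, adjusted p = 0.196), and without replicate 1, 2, 3, 4, 5, 6, 7, 9, 11, 12, 14, 15, 16, 17, 19, 20, 21, 22, 27, 28, 29 or 30 (each alone, 22 of 30 libraries), where the highest adjusted p was 0.0951. Grm2 and Grm3 had log2 fold changes of 0.08 and −0.10, and Grm8, at a mean of 1.67 ± 0.566 CPM in alzheimer libraries, against 2.01 ± 0.549 CPM in wildtype libraries, had −0.26 ± 0.169. None of these 3 was called.

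Of the 12 scaffold and adhesion genes, 2 were lower and 0 higher, and 7 had a log2 fold change below 0, with a class median of −0.060. Dlgap3, a postsynaptic linker between PSD-95 and Shank proteins, stood at a lowest, median and highest value of 394, 419 and 481 CPM in alzheimer libraries, against 419, 446 and 506 CPM in wildtype libraries. The log2 fold change was −0.11 ± 0.029 (edgeR adjusted p = 0.015), lower in 12 of 15 libraries. Shank3, which links the receptor layer to Homer and actin, stood at 309.5, 362 and 404 CPM in alzheimer libraries, against 318, 393 and 423 CPM in wildtype libraries. Its log2 fold change was −0.10 ± 0.032 (edgeR adjusted p = 0.0435), lower in 11 of 15 libraries. The call of Shank3 ended without replicate 1, 3, 4, 5, 11, 13, 15, 16, 17, 19, 20, 21, 22, 24, 26, 27, 28 or 30 (each alone, 18 of 30 libraries), where the highest adjusted p was 0.08.

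Shank1 (log2 fold change −0.10 ± 0.037, edgeR adjusted p = 0.082) and the adhesion gene Nlgn1 (−0.08 ± 0.031, adjusted p = 0.0964) did not pass. With 2 surrogate variables Shank1 did (−0.14, adjusted p = 0.0259), and without a filter on low counts as well (−0.11, adjusted p = 0.0212). Dlg4, the gene of PSD-95, averaged 1014 ± 50.4 CPM in alzheimer libraries, against 1047 ± 62.9 CPM in wildtype libraries (adjusted p = 0.208). Homer1, whose row can hold both the long scaffold form and the short form induced by activity, averaged 91.6 ± 7.82 CPM in alzheimer libraries, against 95.7 ± 9.15 CPM in wildtype libraries (adjusted p = 0.221). Dlg2, Dlg3, Dlgap1, Shank2 and Nlgn2 had log2 fold changes between 0.02 and 0.08, none called, and Homer2 had −0.13 ± 0.057, not called either.

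Camk2a and Camk2b, the catalytic subunits of CaMKII, had log2 fold changes of −0.01 ± 0.029 and 0.01 ± 0.020. Camk2a averaged 2010.0 ± 121 CPM in alzheimer libraries, against 2017 ± 142 CPM in wildtype libraries. Camk2n1, which encodes an inhibitor of the kinase, fell by 0.19 on the log2 scale with a standard error of 0.030 (edgeR adjusted p = 9.01e-05). It is 1 of 17 further genes, most but not all of them of the same families as the members. Of these 17 genes, 3 were higher and 1 lower (23.5% called, against 8.03% of all genes). Among the higher ones were Dlgap2 (0.20 ± 0.037, adjusted p = 0.00052) and Homer3 (0.15 ± 0.046, adjusted p = 0.0358).

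Of 24 tested genes for other postsynaptic proteins, 4 were higher and 1 lower. Nrgn, which holds calmodulin in spines, was lower (log2 fold change −0.12 ± 0.024, edgeR adjusted p = 0.00177), and the synaptic adhesion gene Lrrtm2 (0.13 ± 0.030, adjusted p = 0.00474), Kalrn, Nrxn3 and Epha4 were higher. Glutamate supply and uptake had 1 of 17 genes higher, the neuronal transporter Slc1a1 (0.07 ± 0.021, adjusted p = 0.0436), and 1 lower, the astrocyte transporter Slc1a3 (−0.12 ± 0.028, adjusted p = 0.0076). Activity-regulated genes had 1 of 18 higher, Fosl2, and 0 lower. The shares called were 20.8% for other postsynaptic proteins, 11.8% for glutamate supply and uptake and 5.56% for activity-regulated genes, against 8.03% of all genes.

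Marker lists of cell types were set beside these values, with 8.03% of all genes called for genotype. CA1 pyramidal markers summed to 1178 to 1775 CPM (median 1335) in alzheimer and 1263 to 1712 CPM (median 1558) in wildtype libraries, with Wfs1 and Pou3f1 of 7 tested markers lower. Oligodendrocyte markers summed to 8214 to 13437 CPM (median 11262) in alzheimer and 8291 to 14803 CPM (median 12689) in wildtype libraries, with 1 of 10 lower, and microglial markers had 5 of 10 lower. Of the other lists, endothelium and pericytes had 4 of 10 lower, astrocytes 3 lower and 1 higher of 10, dentate granule neurons 1 of 5 lower, markers of neighbouring thalamus and cortex 1 of 9 higher, and CA3 neurons, oligodendrocyte precursors and choroid plexus had 0 of 5, 0 of 7 and 0 of 8 called in edgeR. General neuron markers summed to 8707 to 9690.1 CPM (median 9346) in alzheimer and 8828 to 9925 CPM (median 9077) in wildtype libraries, with Syt1 higher and Nefh lower of 12. The part of these markers in the changes of the receptor and scaffold genes was not tested.

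The labels name 2 cohorts, and each group has libraries from both. In cohort 1 alone 0 of the 35 genes were called in edgeR, where 72 of all 12695 genes tested were. In cohort 2 alone 3 were called, Grm5, Grm7 and Grin2a, each as higher, where 573 of all 12522 genes tested were called. The 8 called genes kept their direction in each cohort. Gria3 had −0.12 in cohort 1 and −0.05 in cohort 2, Dlgap3 had −0.07 and −0.15, Shank3 −0.09 and −0.12, and Grm4 −0.24 and −0.15. Gria1 had 0.06 and 0.11, Grik1 0.26 and 0.16, Grm5 0.09 and 0.15, and Grm7 0.08 and 0.16. The 3 libraries highest in choroid plexus and ependyma markers, which belong to tissue of the adjoining ventricle, were female_wildtype_chow replicate 20, male_alzheimer_chow replicate 30 and female_alzheimer_western replicate 11. Without them 4 members were called, all higher: Gria1, Grik2, Grm5 and Grm7. In that fit 834 of all 12622 genes tested were called. The calls of Gria3 (−0.06, adjusted p = 0.0643), Dlgap3 (−0.09, adjusted p = 0.0619), Shank3 (−0.09, adjusted p = 0.139), Grm4 (−0.15, adjusted p = 0.148) and Grik1 (0.14, adjusted p = 0.104) ended, with the direction unchanged. Without female_alzheimer_western replicate 11 alone 5 members were called, 3 higher and 2 lower, where 860 of all 12656 genes tested were called.

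Genotype was then compared within each diet and each sex. On the western diet Grm7 was called at 0.21 ± 0.047 (edgeR adjusted p = 0.00881), in a comparison where 3.17% of all genes were called and 1.51% as higher. On chow Gria3 was called at −0.12 ± 0.027 (adjusted p = 0.0146), where 0.901% of all genes were called and 0.359% as lower. This call ended without replicate 19 or 20, with an adjusted p of up to 0.0521. The difference between the diets was not called for either gene: it was 0.16 ± 0.065 for Grm7 and 0.08 ± 0.040 for Gria3 (each adjusted p = 1, edgeR). None of the 35 genes passed the test of that difference in edgeR, DESeq2 or limma-voom, against 0% of all genes in edgeR. At an unadjusted p below 0.05 there were 4 of them, against 3.55% of all genes.

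In females Gria3 (−0.115 ± 0.029, edgeR adjusted p = 0.0248) and Dlgap3 (−0.16 ± 0.042, adjusted p = 0.0287) were lower in alzheimer, where 2.57% of all genes were called and 1.33% as lower. In males 0 members passed in edgeR, DESeq2 or limma-voom, where 1.25% of all genes were called in edgeR. An unadjusted p below 0.05 was found in males for 8 members, against 13.1% of all genes. Gria3 had −0.04 ± 0.027 and Dlgap3 −0.05 in males. The difference between the sexes did not pass for any member in edgeR, DESeq2 or limma-voom, against 0% of all genes in edgeR. For this difference 2 members had an unadjusted p below 0.05, against 4.21% of all genes. The female call of Gria3 ended without replicate 11, 12, 19, 20 or 21, and that of Dlgap3 without replicate 11, 15, 16, 17, 19, 21 or 22, with an adjusted p of up to 0.101. DESeq2 and limma-voom each called 5 members in females, 1 higher and 4 lower, where they called 454 and 450 of all 12547 genes.

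Averaged over sex and genotype, the western diet changed none of the 35 genes in edgeR, DESeq2 or limma-voom, and none had an unadjusted p below 0.05. Across all genes 0.00797% were called and 5.55% had an unadjusted p below 0.05. The median size of the members' log2 fold changes was 0.013, against 0.031 for all genes. Nlgn1 had the smallest p, at −0.06 ± 0.031 (edgeR adjusted p = 0.914).

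For most members the estimates in females and males pointed opposite ways, although none passed on its own. The western diet had a log2 fold change above 0 in females and below 0 in males for 26 of the 35 genes, or 74.3%, against 28.6% of all genes tested. The list of other postsynaptic proteins leaned the same way, with 16 of 24 genes above 0 in females and 19 of 24 below 0 in males. The list for AMPA receptor auxiliary proteins had 15 of 22 above 0 in females and 12 of 22 below 0 in males. The 17 further genes, most of them of the same families, had 8 above 0 in females and 11 below 0 in males. Other postsynaptic proteins thus shared the pattern, and these latter lists did so less or only in males. In females 29 of 35 members lay above 0 and in males 6 did, with medians of 0.041 and −0.044. All 12 scaffold genes and all 4 AMPA genes were below 0 in males, and 11 of the 12 and all 4 were above 0 in females. NMDA genes had 5 of 6 below 0 in males and 6 of 6 above 0 in females, and kainate genes 4 of 5 and 3 of 5. The metabotropic class leaned otherwise, with 4 of 6 genes above 0 in males and 4 of 6 in females. Its member Grm8 had the largest difference of any member, −0.42 for females minus males, and was not called. Within one sex none passed in edgeR, DESeq2 or limma-voom, against 0.183% of all genes in females and 0.128% in males in edgeR. In females 3 members had an unadjusted p below 0.05, against 9.56% of all genes, and in males 5, against 11%. The 35 genes were measured in the same libraries, so these counts are not independent of each other.

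**Figure D3:**
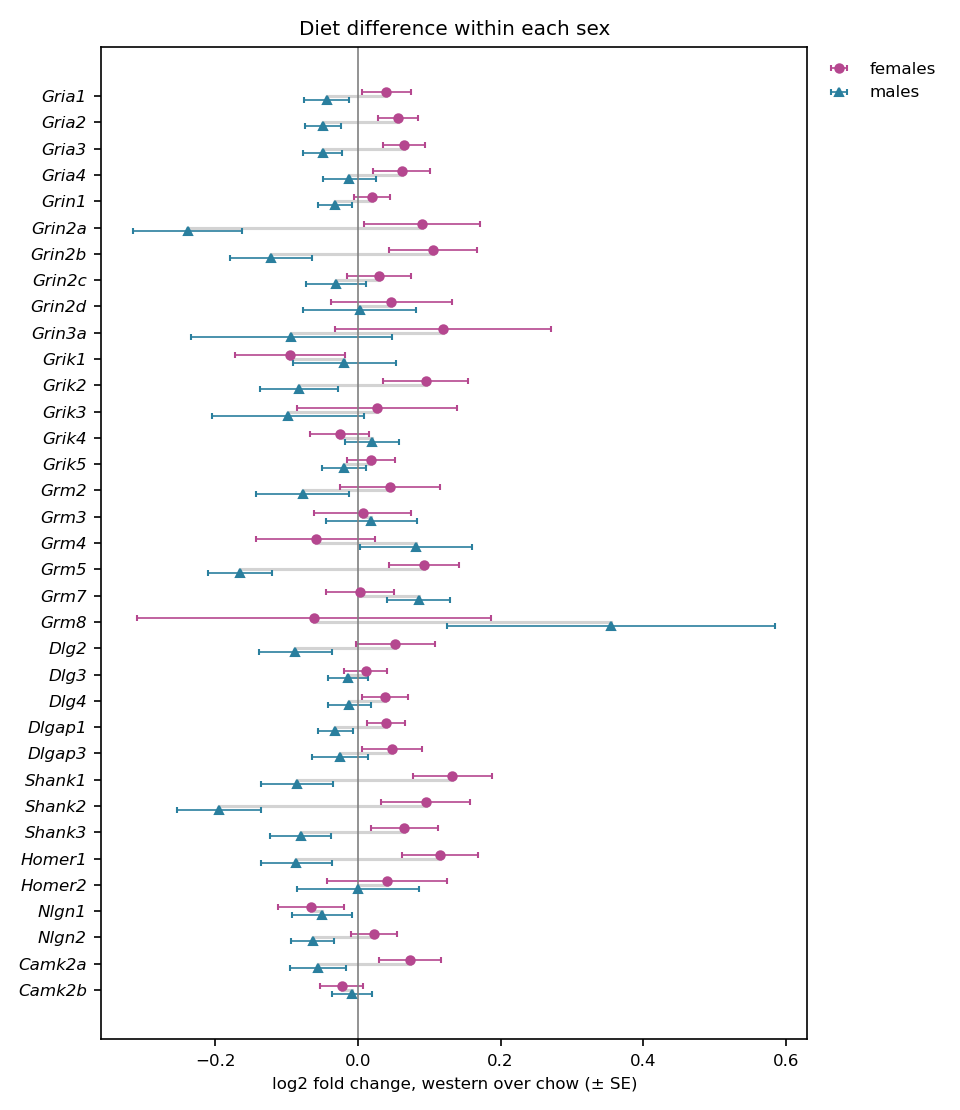
Log2 fold change of western diet over chow (x axis, ± SE) for each of the 35 genes, in females (circles) and males (triangles). Most circles lie right of 0 and most triangles left of it, with Grin2a, Shank2 and Grm5 among the widest gaps. Grm8 has the widest gap, in the other direction.

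Grm5 was the member whose diet effect differed between the sexes. In females it had 144, 139 and 139.9 CPM in alzheimer rats on the western diet, against 133, 129, 124 and 131 CPM in alzheimer rats on chow. Wildtype females had 129, 119 and 127 CPM on the western diet and 111, 133, 114 and 126 CPM on chow. Female alzheimer libraries thus did not overlap between the diets, and the female wildtype libraries did. In males Grm5 had 127, 126, 140.0 and 119 CPM in alzheimer rats on the western diet, against 149, 133, 143 and 137 CPM on chow. Wildtype males had 106, 128, 122 and 108 CPM on the western diet and 129.9, 153, 131 and 119 CPM on chow. In both genotypes the male diet groups overlapped by 1 or more libraries.

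The diet effect on Grm5 was 0.09 ± 0.049 in females and −0.16 ± 0.045 in males on the log2 scale. The difference was 0.26 ± 0.066 (edgeR adjusted p = 0.0422), with 1.23% of all genes called in this comparison and 0.781% called as higher. The call ended without the cohort term (0.25, adjusted p = 0.0553), under 2 surrogate variables (0.24, adjusted p = 0.418), without the 3 libraries highest in choroid plexus markers (0.28, adjusted p = 0.062), in cohort 1 alone (0.32, adjusted p = 0.301) and in cohort 2 alone (0.20, adjusted p = 0.414). It also ended without replicate 1, 2, 3, 6, 7, 9, 10, 11, 12, 15, 16, 18, 19, 21, 22, 25, 26, 27, 28 or 30 (each alone, 20 of 30 libraries), where the highest adjusted p was 0.0911. Its direction was the same in each of these fits.

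**Figure D4:**
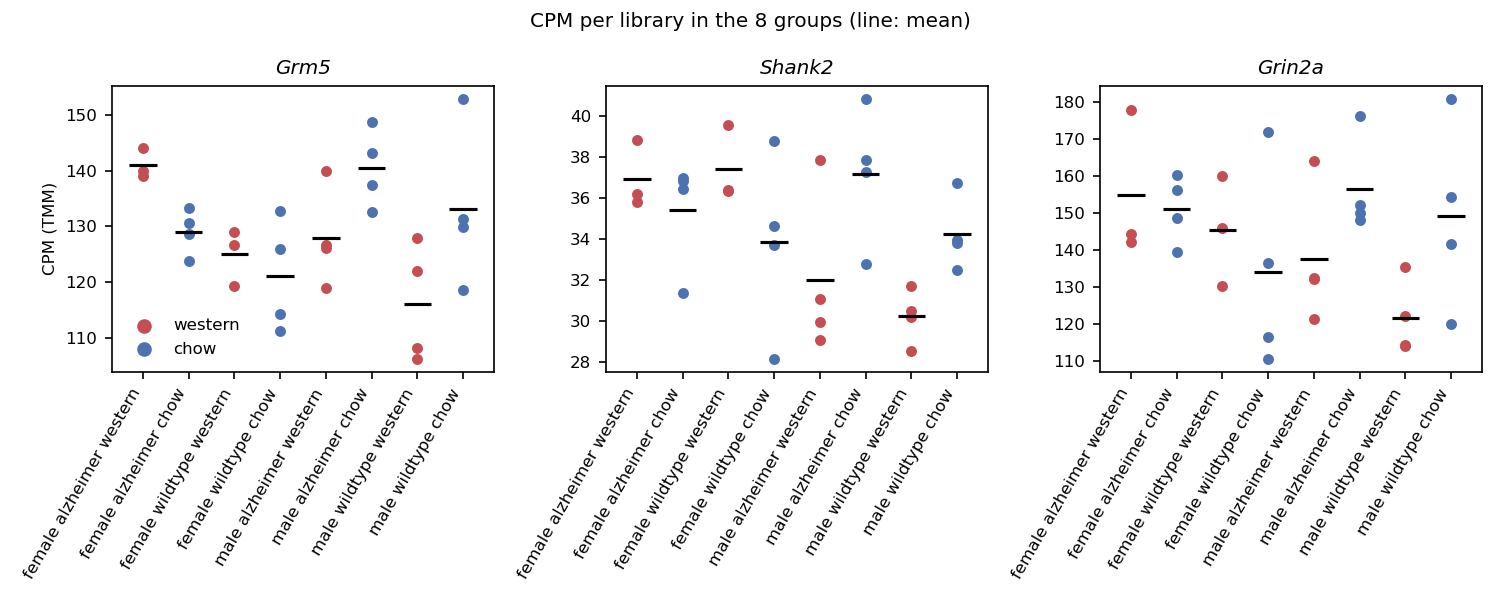
CPM (y axis) per library of Grm5, Shank2 and Grin2a in the 8 groups, red for western diet and blue for chow, with the group mean as a line. In males the western means lie below the chow means for all 3 genes, and in females above them.

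Shank2, a scaffold gene, and Grin2a had larger estimates of this difference, with wider errors, and did not pass. Shank2 had 38.9, 36.2 and 35.8 CPM in female alzheimer libraries on the western diet, against 36.8, 37.0, 31.4 and 36.4 CPM on chow. In male wildtype libraries it had 30.2, 31.7, 30.5 and 28.6 CPM on the western diet, all below the 33.8, 34, 36.8 and 32.5 CPM on chow. The difference of the diet effects was 0.29 ± 0.086 for Shank2 (edgeR adjusted p = 0.0815) and 0.33 ± 0.111 for Grin2a (adjusted p = 0.146). DESeq2 called Shank2 (adjusted p = 0.0492), and without a filter on low counts both passed (0.0454 and 0.0338). Shank1, Gria3, Homer1, Gria2 and Grin2b had differences from 0.10 to 0.23, each with an adjusted p above that of Grin2a.

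Markers of other cell types were set beside these values. For the difference of diet effects between females and males, oligodendrocyte markers had 10 of 10 below 0 (median −0.21, none called). Microglial and endothelial markers each had 9 of 10 below 0 with 1 called as lower. Astrocyte markers had 6 of 10 below 0 with 1 called as lower. Oligodendrocyte precursor markers had 4 of 7 below 0 with 1 called as higher. Oligodendrocyte markers summed to a median of 12298 CPM in females on the western diet and 12747 CPM in females on chow, and to 11726 CPM in males on the western diet and 10769 CPM in males on chow. General neuron markers had 8 of 12 below 0 (median −0.039, none called). The part of these markers in the receptor and scaffold values was not tested. Among activity-regulated genes Nr4a2 and Nr4a3 were called as higher and Ier2 as lower in the same comparison, and of glutamate supply genes the glutamine transporter Slc38a2 was called as higher (0.26 ± 0.053, edgeR adjusted p = 0.00626). The share of all genes called in this comparison was 1.23%.

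Sex averaged over genotype and diet changed none of the 35 genes in edgeR, where 0.837% of all genes were called. An unadjusted p below 0.05 was found for 9 members, against 14.8% of all genes. Gria2, with the smallest p, stood at 1055, 1125 and 1214 CPM (lowest, median, highest) in females and at 1116, 1192 and 1265 CPM in males. Its log2 fold change was −0.07 ± 0.019 (edgeR adjusted p = 0.0844), and it passed in DESeq2 (adjusted p = 0.0454) and limma-voom (0.0438), the only member to do so in either. Grin2b averaged 120.0 ± 8.28 CPM in females and 110.0 ± 12 CPM in males, with 0.13 ± 0.042 (edgeR adjusted p = 0.117). Among AMPA genes Gria2, Gria3 and Gria4 lay below 0 and Gria1 above it, and 9 of 12 scaffold genes lay above 0.

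**Figure D5:**
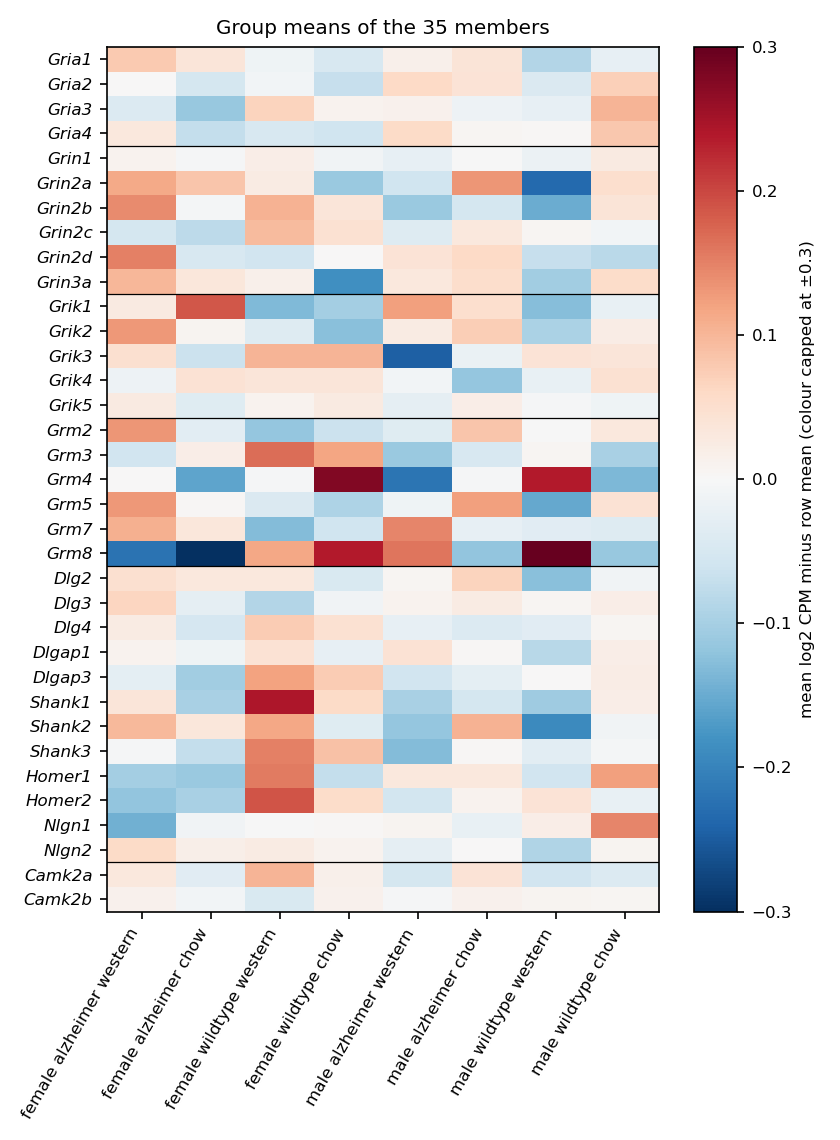
Mean log2 CPM of each of the 35 genes in the 8 groups, minus the mean over the groups (colour, capped at 0.3 in either direction). Horizontal lines separate the classes. Grm8 and Grm4 reach farthest from 0, and Grin1, Grik5 and Camk2b are nearly white throughout.

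Members differed widely in how steady they were between libraries of one group. After group and cohort were taken out, the SD of log2 CPM ran from 0.0405 for Grin1, 0.0443 for Dlgap1 and 0.0495 for Gria2 to 0.231 for Grik3, 0.302 for Grin3a and 0.559 for Grm8. The least steady of these were low genes, with 9.60 CPM on average for Grik3, 4.72 CPM for Grin3a and 1.84 CPM for Grm8. Grin2a was unsteady for its level, at 0.18. Dlg4 averaged 1062 ± 54.4 CPM in cohort 2 (n = 16) and 994 ± 39.7 CPM in cohort 1 (n = 14), a log2 difference of 0.09 ± 0.022 that did not pass (edgeR adjusted p = 0.0818). Shank1 (0.13, adjusted p = 0.123) and Dlgap3 (0.08, adjusted p = 0.203) pointed the same way, and 0 of the 35 genes were called for cohort, against 0.0877% of all genes. Cohort was a term of the fits unless stated otherwise.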

How the data were processed

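The 30 libraries come from snap-frozen rat dorsal hippocampus. Per the labels' protocols, polyadenylated RNA was selected and libraries were made with an NEB Ultra II kit. The authors deposited 1 table of unnormalized counts, with gene symbols as rows. Per the submitters' processing notes, reads were trimmed with cutadapt and aligned with STAR 2.7.0a. No source used here names the counting tool, strand setting, build or annotation, so overlapping and antisense genes, and copies that share reads, cannot be told apart. The test used edgeR 4.0.16 (R 4.3.3) with filterByExpr (minimum count 10, minimum total 15), TMM, 1 coefficient per group plus cohort, and the two-sided quasi-likelihood F test with Benjamini-Hochberg adjustment over all 12547 genes tested. Each effect averages the strata of the other factors equally. SE is the change over the root of F. A call is an adjusted p below 0.05. The common biological coefficient of variation was 6.27%. No pair of libraries of a group agreed within sampling noise. Members and lists were chosen with earlier results of these data known. All 35 members are given, with full values for those called, and companion genes only where called, with some items not reported here. Grin2a and Shank2 are shown per library after their values were seen. Labels do not state that each library is a separate animal, so p-values measure the spread between libraries. Alternatives used DESeq2 1.42.0, limma-voom 3.58.1 and sva 3.50.0.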

Additional observations from a re-analysis of the deposited data

Results flagged for a closer look

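The effect of diet on Grm5 differed between females and males, by 0.26 on the log2 scale, by the test of the difference itself in edgeR (adjusted p = 0.0422). The call ended when any 1 of 20 of the 30 libraries was left out, without the cohort term, with 2 surrogate variables (adjusted p = 0.418), without the 3 libraries highest in choroid plexus markers, in cohort 1 alone (adjusted p = 0.301) and in cohort 2 alone (adjusted p = 0.414).

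In 11 of 210 sets, each 1 gene in 1 group of 4 libraries, a single library stood apart from the other 3 by Dixon's test at 95%. Chance flags about 1 in 20, and the share here was 5.24%. Female_wildtype_chow replicate 9 was lowest for 3 scaffold genes: Dlg4 at 1024 CPM against 1074 to 1083 CPM in the others, Shank1 at 701 CPM against 863 to 893 CPM, and Nlgn2 at 272 CPM against 289.7 to 292 CPM. Female_alzheimer_chow replicate 16 was lowest for Grik5, at 326 CPM against 353 to 357 CPM, and for Shank2, at 31.4 CPM against 36.4 to 37.0 CPM. Male_alzheimer_chow replicate 25 was highest for Grin2a, at 176 CPM against 148 to 152 CPM, and for Camk2a, at 2273 CPM against 1980.5 to 2027 CPM.

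Each of 4 other libraries stood apart for 1 gene. Grm2 was lowest in male_wildtype_western replicate 5, at 60.5 CPM against 74.1 to 74.2 CPM. Grm7 was highest in male_alzheimer_chow replicate 3, at 57.1 CPM against 48.7 to 50.1 CPM. Dlg4 was highest in male_alzheimer_western replicate 23, at 1094 CPM against 986 to 996 CPM, and Shank1 in male_wildtype_chow replicate 26, at 914 CPM against 761 to 782 CPM.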

How the results depend on the processing

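The genotype count of 8 members was 8 in DESeq2 and in limma-voom, 0 in cohort 1 alone, 3 in cohort 2 alone, 4 without the 3 libraries highest in choroid plexus markers, and 5 to 9 with 1 library left out. The counts over all genes shifted as well. For genotype 1007 of all 12547 genes tested were called in the main fit, 1167 in DESeq2 and 1139 in limma-voom. In the cohorts alone 72 of 12695 and 573 of 12522 were called, and without those 3 libraries 834 of 12622. No called member changed sign under any alternative run. The count of 1 for genotype on chow was 0 in either cohort alone and without those 3 libraries, and 0 to 1 with 1 library left out. Over all genes it was 113 in the main fit, 29 and 43 in cohorts 1 and 2, and 91 without those libraries. The count of 1 on the western diet was 0 in cohort 1 alone, 2 in DESeq2, limma-voom, the unfiltered fit and with 2 surrogate variables, 3 with only the libraries of that diet, and 1 to 2 with 1 library left out. Over all genes it was 398 in the main fit, 40 in cohort 1 alone, 591 in DESeq2 and 543 in limma-voom. It was 467 of 15260 in the unfiltered fit and 256 with 2 surrogate variables. The count of 2 in females was 0 in either cohort alone and without the 3 libraries, 1 without the cohort term, 5 in DESeq2, limma-voom, the unfiltered fit and with 2 surrogate variables, 6 with female libraries only, and 0 to 4 with 1 left out. Over all genes it was 322 in the main fit, 47 and 141 in cohorts 1 and 2, and 188 without the 3 libraries. It was 265 without the cohort term, 454 in DESeq2, 450 in limma-voom, 407 of 15260 unfiltered and 339 with 2 surrogate variables. The count of 0 in males was 1 in cohort 2 alone, where it was 107 over all genes, against 157 in the main fit. The diet-by-sex count of 1 was 3 in the unfiltered fit, 2 in DESeq2, 0 without the cohort term, with 2 surrogate variables, in either cohort alone and without the 3 libraries, and 0 to 3 with 1 left out. Over all genes it was 154 in the main fit, 242 of 15260 unfiltered, 268 in DESeq2 and 147 without the cohort term. It was 12 with 2 surrogate variables, 35 and 32 in cohorts 1 and 2, and 108 without the 3 libraries. The sex count of 0 was 2 in the unfiltered fit, 1 in DESeq2 and limma-voom, and 0 to 1 with 1 left out. Over all genes it was 105 in the main fit, 254 of 15260 unfiltered, 241 in DESeq2 and 205 in limma-voom. The count of 0 for diet in males was 2 in the unfiltered fit, where it was 71 of 15260 over all genes, against 16 in the main fit. The other member counts stayed within 1.5 times. The cause of these shifts was not tested, and a fit on fewer libraries has less power. No paired analysis was possible because the replicate numbers run from 1 to 30 over all libraries and no number is shared between groups.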
